A study of Mus musculus with 6 samples.

Results

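Transcripts of the 3M complex were examined in LSK cells, which are sorted from bone marrow as Sca-1+ c-Kit+ cells without lineage markers and include the haematopoietic stem cells and their earliest progeny. The members were 4 gene symbols of the 24063 in the count files: Cul7, Obsl1, Ccdc8 and Fbxw8. They were chosen by name with the difference between the same Asxl2-/- and control libraries already known, so their fold changes are given as a description and carry no test. All 4 passed the filter on low counts.

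Asxl2-/- LSK cells came from 3 C57BL/6 mice and control LSK cells from 3, all of them treated with pIpC, which mimics viral RNA and sets off an interferon response. The knockout mice carried loxP-flanked Asxl2 alleles and Mx1-cre, in which the interferon-inducible Mx1 promoter drives the Cre recombinase, and by the methods of the study the control mice carried Mx1-cre as well and the sort also took CD45.2+ cells. Mx1-cre recombines in many tissues besides LSK cells, and the interferon stimulus was given to both groups. Nothing in the labels gives the litter or sequencing run of a mouse, so p-values measure only the spread between these samples.

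The 3M complex is a ubiquitin ligase assembled on the cullin CUL7. CUL7 holds the RING protein RBX1, which brings in the ubiquitin-charged enzyme, and the F-box protein FBXW8, which binds SKP1 and recruits substrates, while OBSL1 connects CUL7 to CCDC8 and CCDC8 places the assembly at the cell membrane. Loss-of-function mutations of CUL7, OBSL1 or CCDC8 cause 3-M syndrome, a primordial growth disorder, and the complex has been linked to microtubule integrity, the Golgi apparatus of neurons and turnover of the adaptor IRS1 in insulin-like growth factor signalling.

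Cul7, Obsl1 and Ccdc8 were higher in Asxl2-/- cells and Fbxw8 was slightly lower. Obsl1 was 21.9-fold higher from a low level in control cells, whereas Ccdc8 was 1.71-fold and Cul7 1.39-fold higher, and Fbxw8 was at 0.88 of its control level. The promoters of Cul7, Obsl1 and Ccdc8 are printed below, since these are the members with higher levels. Each window runs from 250 bases before to 50 bases after the start site annotated by RefSeq on GRCm38.p6, is written on the strand of the gene, and has motif matches in capitals.
Obsl1 (chr1:75506403-75506702, minus strand): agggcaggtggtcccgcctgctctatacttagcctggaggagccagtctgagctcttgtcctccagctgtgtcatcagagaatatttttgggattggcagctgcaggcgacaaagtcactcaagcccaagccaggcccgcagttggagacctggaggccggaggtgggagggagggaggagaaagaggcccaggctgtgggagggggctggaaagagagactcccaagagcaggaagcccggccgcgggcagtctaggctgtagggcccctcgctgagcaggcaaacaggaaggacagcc
Cul7 (chr17:46650088-46650387, plus strand): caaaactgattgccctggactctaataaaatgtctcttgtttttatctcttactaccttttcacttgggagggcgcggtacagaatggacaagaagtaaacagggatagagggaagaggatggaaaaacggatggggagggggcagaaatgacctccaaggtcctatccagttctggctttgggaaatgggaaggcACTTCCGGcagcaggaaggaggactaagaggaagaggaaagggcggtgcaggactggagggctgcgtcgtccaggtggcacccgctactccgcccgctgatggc
Ccdc8 (chr7:16993652-16993951, plus strand): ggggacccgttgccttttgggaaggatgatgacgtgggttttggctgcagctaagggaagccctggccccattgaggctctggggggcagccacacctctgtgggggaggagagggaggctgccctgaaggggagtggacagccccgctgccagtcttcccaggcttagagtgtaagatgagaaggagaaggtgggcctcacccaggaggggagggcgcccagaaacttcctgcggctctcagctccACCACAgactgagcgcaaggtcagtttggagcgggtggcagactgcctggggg

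The windows were searched on both strands for the RUNX core TGTGGT, the ETS motif CCGGAAGT, the AP-1 motif TGANTCA and the E-box CACGTG, the first 2 being recognised by transcription factor families with a central place in blood stem cells. The Obsl1 window held no match to any of the 4. The Cul7 window held 1 ETS match (ACTTCCGG, the reverse strand form) at -54 from the start site, a motif present in 3.89% of the 32851 mouse promoters of the same length. The Ccdc8 window held 1 RUNX match (ACCACA) at -3, a motif present in 16.8% of promoters. AP-1 motifs were present in 7.81% and E-boxes in 7.15% of promoters and in none of these 3. The Obsl1, Cul7 and Ccdc8 windows held 8, 10 and 7 CpG dinucleotides, beside a median of 7 and quartiles of 3 and 20 over all promoters. These matches are descriptions of the letters in the windows, and binding was not measured. The Ccdc8 window lies wholly upstream of the exon that the count files list for the gene. No promoter entry was matched for Fbxw8.

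The libraries held from 25528540 to 55032075 counts. Asxl2-/- replicate 2 and control replicates 1 and 3 were deposited as counts per exon, where reads across splice junctions may enter several times, and the other 3 as counts per gene. The kind of file was a covariate in the fits behind the log2 fold changes, unless stated otherwise. Levels per library, their ratios and sums of markers were not corrected for it, except where its removal is stated. Asxl2 as a whole gene was not past the threshold (log2 fold change 0.11, SE 0.095, edgeR adjusted p = 0.469), but its exon 11 held 0.583% of Asxl2 exon counts in Asxl2-/- replicate 2 against 10.3% and 12.0% in control replicates 1 and 3. Xist had 49540 to 66689 counts in the knockout libraries and 590 to 3194 in the controls, while 4 Y-linked genes had at most 2 counts in the knockout libraries and at least 1026 in the controls, so that the sex of the mice and the genotype cannot be told apart. LSK markers including Kit, Ly6a and Cd34 were present in all 6 libraries, with a summed level of 1076 to 1459 normalized CPM (read counts scaled to a common library total) in Asxl2-/- and 1003 to 1168 in control cells.

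Cul7, the scaffold (NM_025611, chromosome 17, 46650338 to 46664364 on mm10, plus strand, 26 exons), had 1801, 3935 and 1677 counts in Asxl2-/- replicates 1 to 3 and 3319, 1160 and 2493 in control replicates 1 to 3. After scaling by the effective library size these counts were 63.9, 73.9 and 59.1 normalized CPM in Asxl2-/- cells and 63.7, 40.3 and 52.6 in control cells. The ranges of the groups overlapped on this scale, because control replicate 1 lay above Asxl2-/- replicate 3. With the effect of the kind of file removed, the level of Cul7 averaged 6.10 ± 0.09 log2 CPM (SD, n = 3) for Asxl2-/- and 5.62 ± 0.16 (SD, n = 3) in control cells, and the groups no longer overlapped. The log2 fold change was 0.48 (SE 0.12). It was 0.61 among the gene-count files and 0.35 among the exon-count files.

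Obsl1, the adaptor between CUL7 and CCDC8 (NM_178884, chromosome 1, 75485825 to 75506452, minus strand, 20 exons), had 245, 522 and 139 counts in the Asxl2-/- libraries. The controls held 23, 8 and 24 counts. Normalized CPM were 8.69, 9.81 and 4.90 in Asxl2-/- replicates 1 to 3 against 0.441, 0.278 and 0.506 in control replicates 1 to 3. The lowest knockout library thus stood far above the highest control, and Asxl2-/- replicate 3 was the lowest of its group. Levels were 3.02 ± 0.42 log2 CPM (SD, n = 3) in Asxl2-/- and -1.40 ± 0.11 (SD, n = 3) in control cells. The log2 fold change of 4.45 (SE 0.32) stood at percentile 99.94 of the 14145 genes tested. Among gene-count files alone it was 4.59, and among exon-count files 4.37. The control counts were above the floor of 3 counts in every library, so the gene was detected there but with little precision.

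Ccdc8, the membrane-tethering adaptor (NM_001101535, chromosome 7, 16994588 to 16996645, plus strand, listed with 1 exon), had 546, 604 and 364 counts in Asxl2-/- libraries. In the control libraries it had 489, 235 and 275 counts. Normalized CPM were 19.4, 11.3 and 12.8 in Asxl2-/- and 9.38, 8.16 and 5.80 in control cells. Every knockout library was above every control, with Asxl2-/- replicate 1 well above the other 2. The levels of 3.77 ± 0.31 and 2.99 ± 0.36 log2 CPM (SD, n = 3 each) gave a log2 fold change of 0.78 (SE 0.27). Gene-count files alone gave 0.98 and exon-count files 0.58.

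Fbxw8, the substrate receptor (NM_172721, chromosome 5, 118064981 to 118155458, minus strand, 11 exons), had 2366, 4607 and 2234 counts in Asxl2-/- libraries. The control libraries held 4852, 2748 and 4669. Normalized CPM were 84.0, 86.6 and 78.8 in Asxl2-/- cells and 93.1, 95.4 and 98.5 in control cells. The groups did not overlap on this scale, yet they lay close together, and this was the member with the smallest spread. Levels were 6.38 ± 0.05 log2 CPM in Asxl2-/- and 6.57 ± 0.05 in control cells (SD, n = 3 each). The log2 fold change was therefore -0.19 (SE 0.08). When libraries were scaled by their totals alone the log2 fold change was -0.09.

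**Figure D1:**
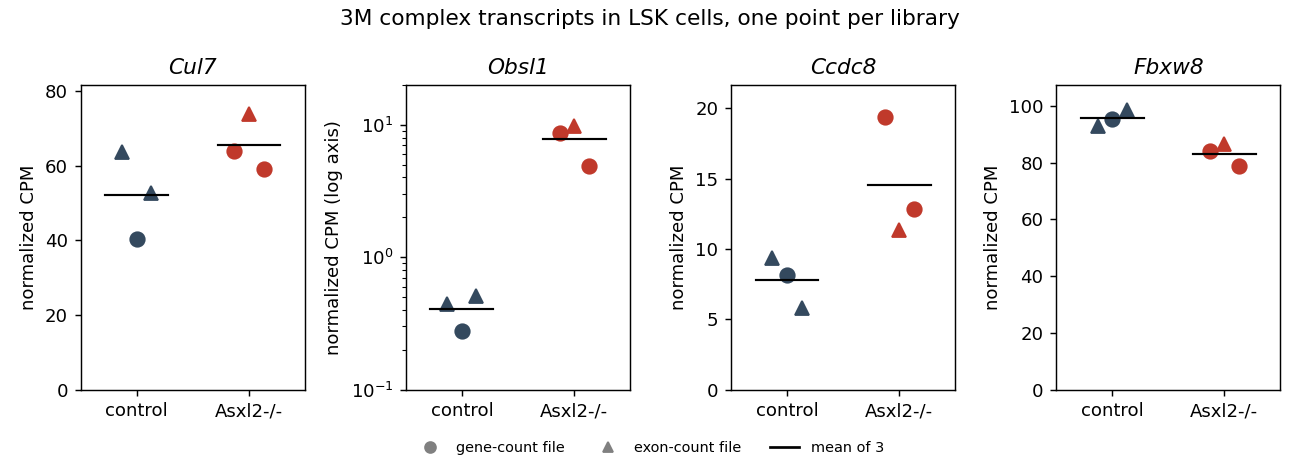
Normalized CPM of Cul7, Obsl1, Ccdc8 and Fbxw8 in each library by group, with circles for gene-count files, triangles for exon-count files and a line at the mean of 3 libraries. The Obsl1 axis is logarithmic and its knockout points lie between 4.90 and 9.81 against 0.278 to 0.506 in controls, while Cul7 groups overlap, Ccdc8 groups separate narrowly and Fbxw8 is lower in all 3 Asxl2-/- libraries.

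Of the 4 members, 1 (Obsl1) was past an edgeR adjusted p of 0.05, beside 2.34% of all genes tested and 2.04% past it in the raised direction. After removal of the file effect the 2 groups did not overlap for any of the 4, beside 44.3% of all genes tested. Cul7, Obsl1 and Ccdc8 lay above the controls, as did 23.6% of all genes, and Fbxw8 lay below, as did 20.7%. The median log2 fold change of the members was 0.63, beside 0.00052 over all genes tested. Because the members were chosen with this contrast known, nothing is read from these counts. In bulk RNA a change in the number of cells that express a gene and a change in RNA per cell cannot be told apart.

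Expressed as CPM per kilobase of exon, with the total of each library as its base, the level of the members had the same order in all 6 libraries, with Fbxw8 highest, then Cul7, Ccdc8 and Obsl1. Fbxw8 was at 16.8 to 18.6 CPM per kilobase in Asxl2-/- and 17.6 to 18.9 in control cells, so that its groups overlapped on this scale. Cul7 was at 11.6 to 12.9 and 7.20 to 11.3, Ccdc8 at 5.33 to 10.4 and 2.51 to 4.47, and Obsl1 at 0.921 to 1.66 and 0.0476 to 0.0781 CPM per kilobase. Within each group the ranges of neighbouring members did not overlap. Obsl1 thus remained the scarcest transcript of the complex in Asxl2-/- cells.

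The relative amounts of the members were compared as ratios within each library. Cul7 exceeded Obsl1 per length by 7.67, 7.87 and 12.6 times in Asxl2-/- replicates 1 to 3 and by 151, 151 and 108 times in control replicates 1 to 3. The ratio of Cul7 to Fbxw8 was 0.685, 0.769 and 0.676 in Asxl2-/- and 0.616, 0.380 and 0.481 in control cells, so that the receptor exceeded the scaffold in all 6 libraries. The ratio of Cul7 to Ccdc8 was 1.23, 2.42 and 1.71 in Asxl2-/- and 2.53, 1.84 and 3.37 in control cells, with overlapping groups. Within each kind of file Asxl2-/- lay lower, at 1.23 and 1.71 against 1.84 in gene-count files and 2.42 against 2.53 and 3.37 in exon-count files. Ratios that involve Ccdc8 may depend on the kind of file, since a gene with 1 exon has no spliced reads to be counted more than once.

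The 3 exon-count files showed where along each transcript the counts lay. They hold 1 Asxl2-/- library and 2 control libraries, so these values describe libraries and not the conditions. In Asxl2-/- replicate 2, exons 1 to 8 of Obsl1, numbered from the 5′ end, held 465 of its 522 exon counts, a share of 89.1% (95% Wilson interval 86.1 to 91.5), although they make up 55.1% of the exon length. Exons 9 to 13 held 52 counts and exons 14 to 20 held 5. Exon 8 (75497008 to 75497280) had 49 counts and exon 9 (75493785 to 75494057), of the same 273 bases, had 7. In control replicates 1 and 3, exons 1 to 8 held 17 of 23 counts (73.9%, 53.5 to 87.5) and 23 of 24 counts (95.8%, 79.8 to 99.3), and no count fell in exons 14 to 20, where 0 counts allow a share of up to 14.3% and 13.8% by the same intervals. The division after exon 8 was chosen after the counts were seen, and the intervals cover counting error only.

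Per kilobase, exons 1 to 8 of Obsl1 exceeded exons 9 to 20 by 6.64 times in Asxl2-/- replicate 2, by 2.31 times in control replicate 1 and by 18.7 times in control replicate 3. The count files list a single Obsl1 transcript. An older GENCODE annotation on another build lists further Obsl1 transcripts, compared here by exon lengths only. One protein-coding entry of 9 exons, Obsl1-010, matched the lengths of RefSeq exons 2 to 8 and then ended in a different exon of 289 bases, and 2 protein-coding entries of 12 exons matched through exon 11. Such alternative last exons are not listed in the count files, so which transcript the reads came from was not tested.

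With the transcript divided at its middle exon, the first 10 exons of Obsl1 had 5.94 times the density of the last 10 in Asxl2-/- replicate 2, 1.97 times in control replicate 1 and 12.6 times in control replicate 3. The first 13 exons of Cul7 had 0.832, 0.786 and 0.875 times the density of the last 13 in Asxl2-/- replicate 2, control replicate 1 and control replicate 3. The density in Asxl2-/- replicate 2 was above the mean of both controls in 25 of 26 Cul7 exons and above each control in 21. Control replicate 1 was itself above control replicate 3 in every Cul7 exon (log2 ratio 0.13 to 0.91), and exons of 1 library are not independent. For Fbxw8 the density in Asxl2-/- replicate 2 was above the mean of both controls in 2 of 11 exons and below both controls in 6. The first 5 Fbxw8 exons had 1.62, 1.72 and 1.72 times the density of the last 6 in the same 3 libraries, and its density was lower in the long last exon than in the exon before it in all 3.

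**Figure D2:**
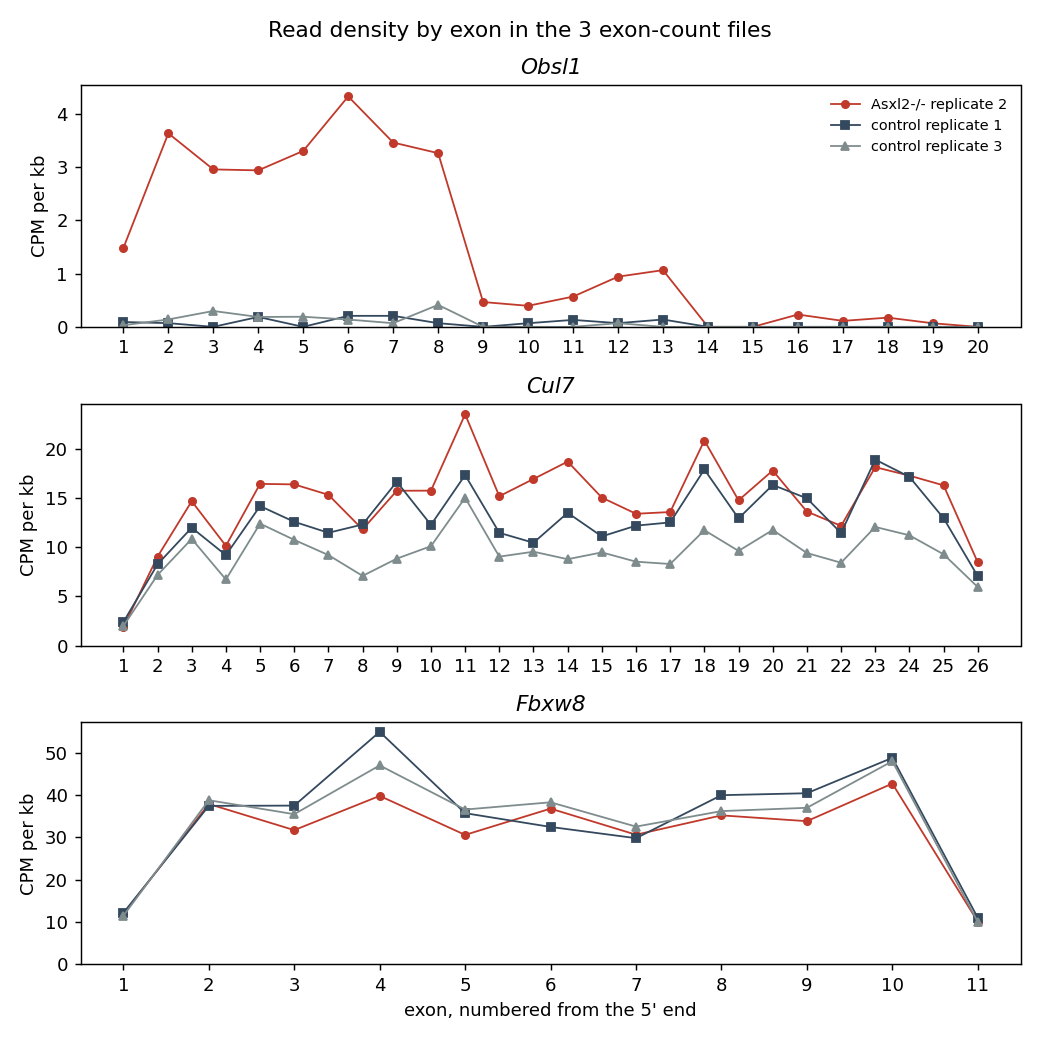
CPM per kilobase in each exon of Obsl1, Cul7 and Fbxw8, numbered from the 5′ end, in Asxl2-/- replicate 2 (red circles), control replicate 1 (dark squares) and control replicate 3 (grey triangles). Obsl1 counts in the knockout library fall off after exon 8, whereas the Cul7 and Fbxw8 profiles have like shapes in the 3 libraries.

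The genes next to the members were compared by edgeR, since the choice of members did not use them. Inha, which encodes the alpha subunit of the hormone inhibin, lies 625 bases beyond the 5′ end of Obsl1 and is transcribed in the opposite direction (NM_010564, 75507077 to 75510354, plus strand). It had 60, 56 and 31 counts in Asxl2-/- libraries and 4, 0 and 1 counts in control libraries. Inha passed the filter on low counts only through the Asxl2-/- libraries, and was removed by a filter of at least 10 counts in every library. Its log2 fold change was 5.04 (SE 0.82, edgeR adjusted p = 0.0435), a value that depends on the fit because the controls held so few counts. The adjusted p rose to 0.124 without Asxl2-/- replicate 1, 0.0896 without Asxl2-/- replicate 3, 0.0752 without control replicate 2 and 0.191 without control replicate 3, and was 0.0613 with scaling by library totals alone, and the log2 fold change rose to 8.90 without Asxl2-/- replicate 2. In Asxl2-/- replicate 2, 44 of the 56 Inha counts lay in its second exon, which is farther from Obsl1. That exon is also the longer, with 1021 bases against 442 in the first. The libraries were not stranded, but no exon of Inha, or of the transcript chosen for another gene, shared a base with an exon of a member. Other transcripts and genes listed on several chromosomes were not compared.

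On the other side of Obsl1, 132 bases from its 3′ end, Tmem198 had 17, 17 and 9 counts against 8, 9 and 10. The groups overlapped in counts, and the estimate of 0.68 (SE 0.48) had an edgeR adjusted p of 0.387. Mrpl2, a mitochondrial ribosomal protein gene 206 bases upstream of Cul7, had a log2 fold change of -0.40 (edgeR adjusted p = 0.109), and Rrp36, 3089 bases downstream, one of -0.29 (edgeR adjusted p = 0.142), so that the estimates on either side of Cul7 were opposite in sign to its own. Beside Ccdc8, the values were -0.09 for Pnmal1 (edgeR adjusted p = 0.970) and -0.33 for the phosphatase gene Ppp5c (edgeR adjusted p = 0.109). Beside Fbxw8, Tesc was at 0.29 (edgeR adjusted p = 0.648) and Hrk had too few counts to be tested. Of the neighbours tested, Inha alone passed the threshold with edgeR as reported. With DESeq2, Mrpl2 (adjusted p = 0.0331) and Ppp5c (adjusted p = 0.0303) passed as well, and without control replicate 1 their edgeR adjusted p-values were 0.0454 and 0.0434.

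Partners of the complex and its pathway were then compared through 6 lists with 69 genes, of which 59 were tested. None was raised and 1 was lowered at an edgeR adjusted p of 0.05, while 13 of the 59 had an unadjusted p under 0.05, beside 27.7% of all genes tested, and the median log2 fold change was -0.06. With DESeq2, 4 were raised and 3 lowered, while DESeq2 called 2244 genes over the whole table, 1194 of them raised. Of the genes named below, Dcun1d1 (DESeq2 adjusted p = 0.0267) and Myom1 (DESeq2 adjusted p = 0.0031) were among those raised. The lowered ones were Ube2m (DESeq2 adjusted p = 0.0409), Trp53 (DESeq2 adjusted p = 0.0108) and Hmga2 (DESeq2 adjusted p = 5.43e-12). The background shares with edgeR were 2.04% raised and 0.304% lowered among all genes tested. The counts by list below are from edgeR.

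Of the 8 other cullin scaffolds, none passed the threshold, 2 had positive log2 fold changes and the median was -0.11. Cul9, the closest relative of Cul7, lies 103949 bases from it on chromosome 17 and had 1189, 2315 and 1164 counts in Asxl2-/- libraries. In control libraries Cul9 had 2132, 711 and 1253 counts. Its log2 fold change was 0.56 (SE 0.20, edgeR adjusted p = 0.142), an estimate near that of Cul7. Without control replicate 1 its adjusted p was 0.0345. The ratio of Cul7 to Cul9 per length was 2.15, 2.41 and 2.04 in Asxl2-/- and 2.21, 2.31 and 2.82 in control cells, so that the groups overlapped. Anapc2, the cullin-like subunit of the anaphase-promoting complex, was at -0.23 (edgeR adjusted p = 0.130).

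RING partners, adaptors and neddylation genes gave 13 tested, none past the threshold and a median of -0.14. Rbx1, the RING partner of CUL7, was at -0.14 (SE 0.081, edgeR adjusted p = 0.295), and Skp1a, through which FBXW8 joins the ligase, was at 0.11 (SE 0.082, edgeR adjusted p = 0.397). The smallest p-values of this list belonged to Dcun1d1, which promotes cullin neddylation, at 0.41 (edgeR adjusted p = 0.0758), and Ube2m, the NEDD8-conjugating enzyme, at -0.41 (edgeR adjusted p = 0.122). Among 10 other F-box or WD40 substrate receptors none passed, and the leading genes were Fbxw5 at -0.23 (edgeR adjusted p = 0.138) and Fbxw9 at 0.24 (edgeR adjusted p = 0.280).

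Genes of sarcomere proteins related to or partnered with OBSL1 were mostly scarce. Of 8 listed genes 6 were tested, 5 of them had positive log2 fold changes and the median was 0.75, but none passed. Myom1, a partner of OBSL1 at the M band of muscle, was at 1.48 (SE 0.31, edgeR adjusted p = 0.0668). Summed skeletal muscle markers were at 4.32 to 5.46 normalized CPM in Asxl2-/- and 6.22 to 12.3 in control cells, with Myh1 at 0 in all 6 libraries and none of the 3 markers tested past the threshold. Mylpf made up most of these sums, at 3.58 to 4.51 and 5.42 to 11.5 normalized CPM.

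Of 11 genes reported as substrates or interactors of the complex, 9 were tested and none passed. The leading ones were Trp53, encoding the tumour suppressor p53, which binds CUL7, at -0.33 (edgeR adjusted p = 0.0960), and Rfxank at -0.24 (edgeR adjusted p = 0.147). Irs1, the insulin receptor substrate degraded through CUL7 and FBXW8, had 17, 3 and 8 counts in Asxl2-/- and 6, 1 and 9 in control cells and was too scarce to be tested. The insulin-like growth factor axis gave 13 tested of 19, with 1 lowered, none raised and a median of 0.35. The lowered gene was Hmga2, a chromatin protein that promotes growth and is found in fetal stem cells. It had 122, 157 and 137 counts in Asxl2-/- libraries against 1276, 425 and 804 in control libraries. The groups were far apart (log2 fold change -2.25, SE 0.31, edgeR adjusted p = 0.0319). The adjusted p was 0.111 without Asxl2-/- replicate 1, 0.0606 without Asxl2-/- replicate 3, 0.133 without control replicate 3 and 0.0606 with scaling by library totals alone.

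**Figure D3:**
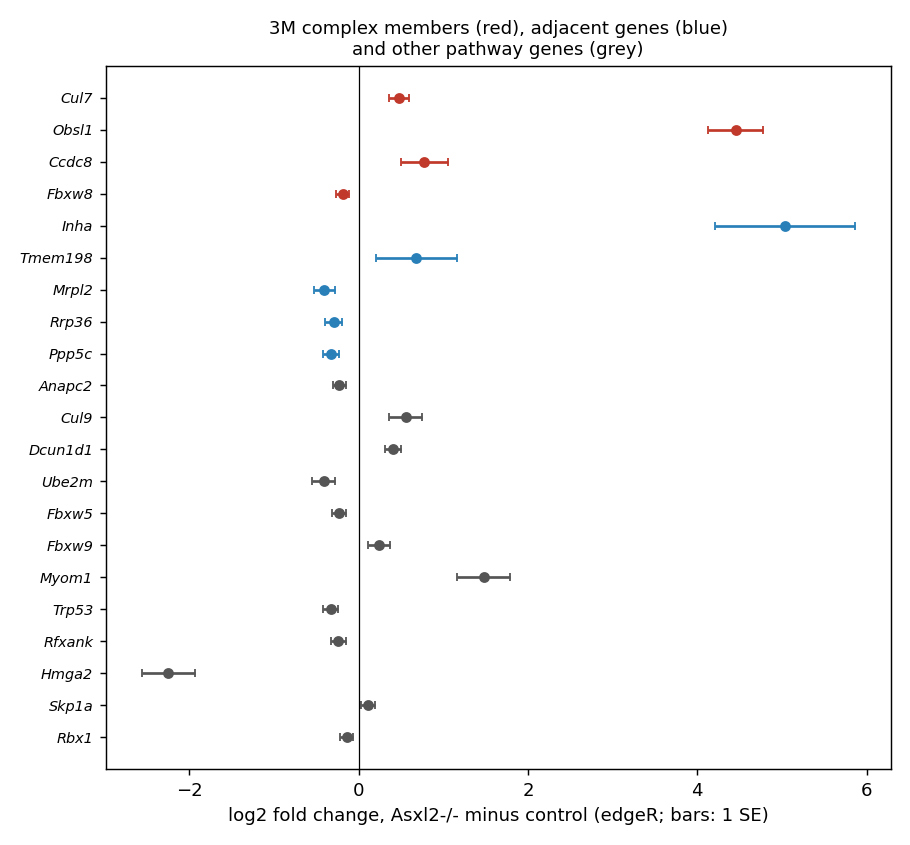
Log2 fold change of Asxl2-/- against control libraries by edgeR, with bars of 1 SE, for the 4 members (red), adjacent genes (blue) and other pathway genes named in the text (grey). Obsl1 at 4.45 and Inha at 5.04 lie farthest to the right and Hmga2 at -2.25 farthest to the left, and most partner genes lie close to 0.

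Genes with the pattern most like each member were sought among 14017 genes by Pearson's r of log2 CPM over the 6 libraries after removal of the file effect. All genes share the same 6 libraries with their groups and depths. The values of r span both groups, so those between members include the contrast known when the members were chosen. Removal of the file effect also made Asxl2-/- replicate 2 and control replicate 2 deviate identically from their group means, so the 6 values were not free. Values of r above 0.95 were found with 786 genes for Obsl1, 1255 for Cul7, 674 for Ccdc8 and 502 for Fbxw8. The closest to Obsl1 were Nfatc4, Fkbp10 and Gatsl3, with r from 0.999 to 1.00 and log2 fold changes of 4.13, 3.78 and 1.24. The closest to Cul7 were the platelet glycoprotein gene Gp9, Dab2ip and Hacl1, those to Ccdc8 were the angiopoietin receptor gene Tek, Sec16b and Map4k3, and those to Fbxw8 were Dhx8, Ankrd54 and Med22, with r from 0.998 to 1.00. Between the members, r was 0.96 for Cul7 and Ccdc8, 0.92 for Cul7 and Obsl1 and 0.84 for Obsl1 and Ccdc8, and from -0.92 to -0.79 for Fbxw8 with the other 3.

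Markers of other cells were set beside the members. Mesenchymal stroma markers, which include Cxcl12 and Col1a1, summed to 147 to 322 normalized CPM in Asxl2-/- and 48.2 to 205 in control cells, with 9 of 9 tested genes at a positive log2 fold change, 0 of 9 past the threshold and none of the 10 listed at 0 in all libraries. The knockout library with the most Obsl1 depended on the scale. On normalized CPM it was Asxl2-/- replicate 2 (9.81), which had the lowest stroma sum of its group (147). With the file effect removed it was Asxl2-/- replicate 1 (3.45 log2 CPM, against 2.96 in replicate 2). Asxl2-/- replicate 1, in which Ccdc8 was also highest, had the highest stroma sum (322). Control replicate 1 had a stroma sum of 205 with 0.441 CPM of Obsl1. B-lymphoid markers summed to 157 to 166 in Asxl2-/- and 38.1 to 56.2 in control cells with 6 of 7 raised, and megakaryocyte markers to 315 to 820 and 158 to 352 with 4 of 7 raised. Epithelial markers summed to 35.5 to 44.7 and 12.3 to 15.6 with 1 of 4 raised, and Krt18 alone made up 34.4 to 41.9 and 8.37 to 12.9 normalized CPM of these sums. Epcam and Krt8 were under 1 CPM in every library. Erythroid markers summed to 150 to 229 and 302 to 480, with 0 of 7 past the threshold and 2 of 7 at a positive log2 fold change. Sums of endothelial markers (163 to 221 and 146 to 195), neural markers (95.2 to 239 and 168 to 174), T and NK cell markers (3.42 to 5.11 and 2.89 to 4.41) and mature myeloid markers (2306 to 6103 and 2355 to 7070) overlapped between the groups. Abundant genes dominate such sums, with Mpo alone at 1749 to 5506 normalized CPM. Of the endothelial markers 6 of 8 had positive log2 fold changes, from -0.88 (Flt4) to 1.76 (Esam). Of the myeloid markers tested 4 of 7 were positive, from -0.29 (Elane) to 2.36 (S100a9). Of the neural markers tested 5 of 7 were positive, from -3.83 (Tubb3) to 0.92 (Snap25). Tubb3 was at 1.35 to 4.90 normalized CPM in Asxl2-/- and 7.85 to 55.5 in control cells. None of the endothelial, myeloid or neural markers passed the threshold. The part of these cells in the levels of the members was not tested.

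The direction of each member was the same in every way of processing that gave a value for it. Log2 fold changes ranged from 4.17 to 4.60 for Obsl1, from 0.33 to 0.61 for Cul7, from 0.58 to 0.98 for Ccdc8 and from -0.24 to -0.09 for Fbxw8 over the alternatives run, including each library left out in turn.

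**Figure D4:**
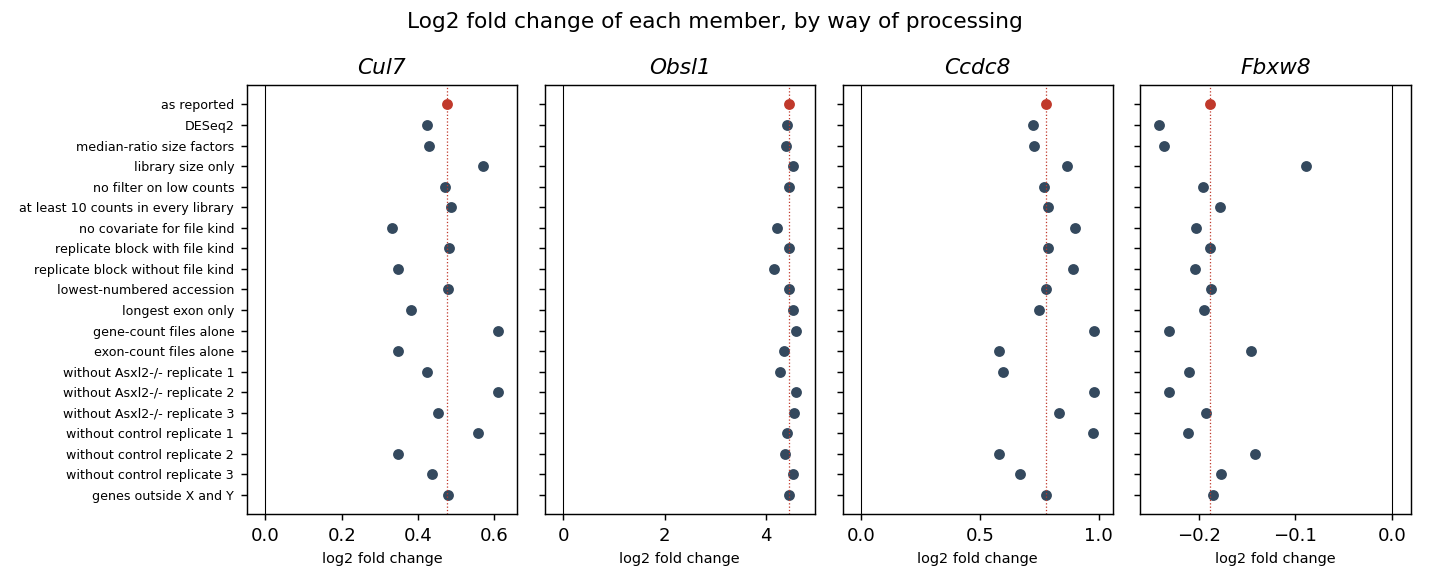
Log2 fold change of each member in Asxl2-/- against control libraries as reported (red) and under each alternative (dark), with a dotted line at the reported value and a black line at 0. No point crosses 0, and Cul7 spans 0.33 to 0.61, Obsl1 4.17 to 4.60, Ccdc8 0.58 to 0.98 and Fbxw8 -0.24 to -0.09.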

How the data were processed

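RNA was sequenced from sorted LSK cells of 3 Asxl2-/- and 3 control mice. The deposited values were raw read counts on mm10 with RefSeq transcripts. Per the labels, the processing notes name STAR, featureCounts and DESeq2, without versions or roles, and by the methods the libraries were poly(A)-selected and unstranded. The authors gave 3 libraries as 1 count per transcript (33068 lines) and 3 as 1 count per exon (317548 lines).

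Each of the 24063 symbols was represented by its transcript with the longest summed exon length (4914 symbols had several), and exon counts were summed. Counts were fitted in edgeR 4.0.16 (R 4.3.3) with TMM scaling, filterByExpr and a quasi-likelihood test, with file kind and group as terms, all 6 libraries and 3 residual degrees of freedom. Two-sided p-values were corrected after Benjamini and Hochberg over the 14145 genes tested (threshold 0.05). Log2 CPM used a prior count of 0.5, and removal of the file effect makes their SDs somewhat too small. Shares of exon counts have Wilson 95% intervals, and the floor is 3 counts. Reads without molecular identifiers are not independent molecules, so intervals cover counting error only. The fit was tested on simulated data.

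The members and the gene lists were chosen with earlier results of these data known, and no p-value is given for a member. By rule, the text names from each list the genes past the threshold or else the 2 with the smallest p, together with Cul9, Skp1a, Rbx1, Asxl2, the nearest gene on each side of a member and the 3 genes most correlated with it (mean of at least 10 counts). Irs1, Xist and the cell type markers were named besides after their values were seen. One gene that the rule names is not reported here.

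Alternatives were DESeq2 1.42.0, scaling by median ratios or by library size only, a filter of at least 10 counts in every library or none, no file covariate, a replicate block with and without it, the lowest-numbered accession, the longest exon alone, each kind of file alone, each library left out and, added after seeing the data, genes outside X and Y. Same-numbered libraries deviated together with r of 0.310, 0.046 and 0.008 for numbers 1 to 3, and the labels do not say that a number is shared.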

Additional observations from a re-analysis of the deposited data

How the results depend on the processing

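The number of members past the threshold was 1. It became 2 with DESeq2, 0 with at least 10 counts in every library (which removes Obsl1), and 0 to 2 with 1 library left out, being 0 without control replicate 3 and 2 without control replicate 1. Over the whole table, 331 genes were called as reported, 2244 with DESeq2 and 1312 without control replicate 1. Pathway genes raised numbered 0, and 4 with DESeq2, 1 with no filter and 0 to 2 with 1 library left out. Pathway genes lowered numbered 1, and 3 with DESeq2, 0 with library size only and 0 to 3 with 1 library left out. Cul7 moved from 0.48 to 0.61 in gene-count files alone, 0.35 in exon-count files alone, 0.33 with no file covariate and 0.35 to 0.61 with 1 library left out. Fbxw8 moved from -0.19 to -0.24 with DESeq2 and median-ratio scaling, -0.089 with library size only and -0.23 to -0.14 with 1 library left out. The scarce neighbours Pnmal1 and Tesc changed sign without passing the threshold. Pnmal1 was at 0.16 with DESeq2, 0.022 with library size only and -1.91 to 0.11 with 1 library left out, and Tesc was at -0.049 with the longest exon alone and -0.16 to 0.68 with 1 library left out. The replicate numbers share only a number. With them as a block beside the file kind, which leaves 1 residual degree of freedom, 3 members passed, 8 pathway genes were raised and 9 lowered, and Pnmal1 was at 0.43. With the block but without the file kind these counts were 1, 0 and 1. Among the alternatives with a test, genes called over the whole table ranged from 9 without control replicate 3 to 5179 with the block and file kind. The causes of these shifts were not tested. Control counts of at most 24 for Obsl1 and 4 for Inha limit the precision of both.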
